A study of Rattus norvegicus with 12 samples.

Results

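The rat major histocompatibility complex, RT1, was examined as all 100 bp windows of chromosome 20 whose start lies above 1500000 and at or below 5500000 in the Rnor 6.0 genome. It held 40000 of the 27820300 windows of the genome, and the other 522060 windows of the chromosome served as the comparison. Windows belong to it by position alone, whatever their counts, while the region itself was picked with earlier results of these data known. MeDIP, methylated DNA immunoprecipitation, pulls down denatured DNA fragments with an antibody against methylated cytosine, so the read count of a window rises with the methylated CpG sites in it. The count also rises with the number of copies of the sequence. No library made without the antibody is among the samples, so methylation and copy number cannot be told apart here. Ventral prostates came from F3 generation males of outbred Hsd:Sprague Dawley SD rats, collected at 19 to 21 days of age and separated by settling and centrifugation into epithelial and stromal cells. The F0 females of the vinclozolin lineage had received this antiandrogenic fungicide at 100 mg/kg/day in DMSO by intraperitoneal injection on gestation days 8 to 14, the control lineage received DMSO alone, and no later generation was treated. There were 12 pools, 3 for each lineage and cell type. The control lineage pools combined 9, 7 and 6 rats, and the vinclozolin lineage pools 9, 10 and 11 rats. By the methods, the tissue of a group of rats was combined before both cell types were prepared from it, so the 2 cell types are not from separate animals. The labelled cell types could not be checked here against marker genes, because no annotation of the build of the files was used, and the part of any cell mixture in the values below was not tested.

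The major histocompatibility complex is the densest cluster of immune genes in the mammalian genome. Its class I genes in the rat are RT1-A, RT1-CE, RT1-N, RT1-S, RT1-T and RT1-M. The classical ones among them encode surface molecules that present peptides from inside the cell to cytotoxic T cells. Its class II genes RT1-B and RT1-D encode molecules that present peptides taken up from outside to helper T cells. The accessory RT1-DM and RT1-DO act in the loading of these peptides. Between class I and class II genes lies a class III segment with complement, tumor necrosis factor, heat shock and steroid hydroxylase genes. Class I genes in particular occur as families of similar copies that differ in number between rat strains, so that short reads from one copy can map to another.

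Gene coordinates in the build of the files were not used here. Landmarks came from the study's own lists of differential regions and transcripts, which assign to a region the genes within 10 kb of it, so a landmark marks a gene only to within that distance. Because those regions were selected by the study on these samples, that lineage differences lie at them is not independent evidence, and only the positions and symbols were taken. In order, regions starting at 3145001, 3164201, 3684701, 4024901 and 4765201 were assigned to RT1-N2, to RT1-S2 and RT1-N3, to the metallothionein gene Mt1m, to the class II gene RT1-DOb and to the class I genes RT1-CE1, RT1-CE4, RT1-CE6 and RT1-CE7, and a transcript of the choline-like transporter gene Slc44a4 was placed at 4593317. Below, these gene names stand for those landmarks where stretches of the region are bounded. In the newer GRCr8 assembly of RefSeq, 34 named coding genes lie between RT1-CE1 and Slc44a4, among them Tnf, Lta, Ltb and Hspa1a, and 35 lie between Slc44a4 and RT1-DOb, among them C2, Cfb, C4a, Notch4, Btnl2, RT1-Da and RT1-Ba. The coordinates of the 2 assemblies were not mixed, and in GRCr8 the order from RT1-CE1 through Slc44a4 to RT1-DOb runs opposite to that in the files.

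The promoters of 4 genes assigned to regions of lineage differences described below are shown as RefSeq gives them for GRCr8, from 250 bases before to 50 after the gene's start, 5′ to 3′, with the CpG sites, the targets of the methylation that MeDIP captures, in capitals. 
RT1-N2: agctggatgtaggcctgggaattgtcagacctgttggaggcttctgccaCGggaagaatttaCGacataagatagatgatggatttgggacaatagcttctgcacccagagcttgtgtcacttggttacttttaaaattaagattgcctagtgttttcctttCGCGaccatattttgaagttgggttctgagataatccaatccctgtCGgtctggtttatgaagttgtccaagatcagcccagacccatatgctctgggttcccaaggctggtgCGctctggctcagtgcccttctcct
RT1-S2: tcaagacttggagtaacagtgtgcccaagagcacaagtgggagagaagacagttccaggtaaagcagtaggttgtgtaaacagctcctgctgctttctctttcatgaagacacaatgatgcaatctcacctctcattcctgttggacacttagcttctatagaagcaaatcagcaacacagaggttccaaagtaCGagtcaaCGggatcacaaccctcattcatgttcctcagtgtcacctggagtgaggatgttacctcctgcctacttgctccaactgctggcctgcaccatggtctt
RT1-DOb: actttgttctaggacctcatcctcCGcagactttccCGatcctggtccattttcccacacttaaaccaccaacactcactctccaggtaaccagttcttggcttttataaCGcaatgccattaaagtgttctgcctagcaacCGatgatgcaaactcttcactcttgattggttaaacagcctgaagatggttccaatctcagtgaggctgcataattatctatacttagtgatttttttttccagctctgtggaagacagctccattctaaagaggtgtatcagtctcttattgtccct
RT1-CE1: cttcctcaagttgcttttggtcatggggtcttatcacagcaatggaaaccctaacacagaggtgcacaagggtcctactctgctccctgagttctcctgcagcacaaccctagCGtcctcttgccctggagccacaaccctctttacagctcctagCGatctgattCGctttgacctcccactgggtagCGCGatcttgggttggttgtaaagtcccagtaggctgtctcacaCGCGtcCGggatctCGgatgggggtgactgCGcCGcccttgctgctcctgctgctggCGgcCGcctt
 They hold 6, 2, 4 and 13 CpG sites. Over all 33469 promoters of the table the median was 7, and 94.5% held at least 1 CpG. The median over the 42 promoters of RT1 genes on chromosome 20 was 5.5. RT1-CE1 and RT1-CE6 were 85.9% identical in a global alignment, against 47.8% to 53.3% for the other pairs among RT1-N2, RT1-S2, RT1-DOb, RT1-CE1 and RT1-CE6. Of the 251 stretches of 50 bases in the RT1-CE1 promoter, the read length used, 30 also occurred in the promoter of RT1-CE12, and 9 of the 42 RT1 promoters (21.4%) shared such a stretch with another RT1 promoter. Counts at such copies are uncertain, since the origin of a read that fits several places equally is not given by its own sequence. The reads were sequenced in pairs, and how the mapped counts treat such reads was not tested.

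The level of MeDIP reads in the RT1 region was close to that of the rest of its chromosome. Its windows held 2.60 to 4.93 counts on average per pool, and per window its level was 0.992 to 1.08 times that of the rest of chromosome 20. In CPM, the counts per 1000000 counts of a pool's total, a window of the region had 0.0446 on average over the 12 pools, against 0.0359 for a window of the genome. The level differed along the region, and the stretch before RT1-N2 had the lowest. From its start to RT1-N2 it was 0.0344 CPM per window, from RT1-N2 to Mt1m 0.0475, from Mt1m to RT1-DOb 0.0492, from RT1-DOb to Slc44a4 0.0554, from Slc44a4 to RT1-CE1 0.0571, and from RT1-CE1 to the end 0.0518. In 50 kb segments the lowest level, 0.0111 CPM per window, lay at chr20:2800001-2850000, and the highest, 0.0909, at chr20:4750001-4800000, which holds the landmark of the RT1-CE genes. Windows without a count in any pool made up 10.7% of the region and 8.65% of the rest of the chromosome. Their share was 15.8% before RT1-N2, 3.10% between RT1-DOb and Slc44a4 and 16.3% between Slc44a4 and RT1-CE1, the stretch with the highest level. Whether these windows lie in unresolved or repeated sequence was not tested. The highest count of a window of the region was 177, and 0 of its windows reached the ceiling of 300 that the counts have. The totals of the pools were 57135700 to 112304623 counts and were on average higher in the vinclozolin lineage in both cell types. In stromal cells they were 57135700, 64361896 and 73948807 in the control and 110076147, 112304623 and 71843106 in the vinclozolin pools. In epithelial cells they were 60600121, 87262275 and 71880778 against 82652348, 109250697 and 74605038. The part of these totals in the lineage differences below was not tested.

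**Figure D1:**
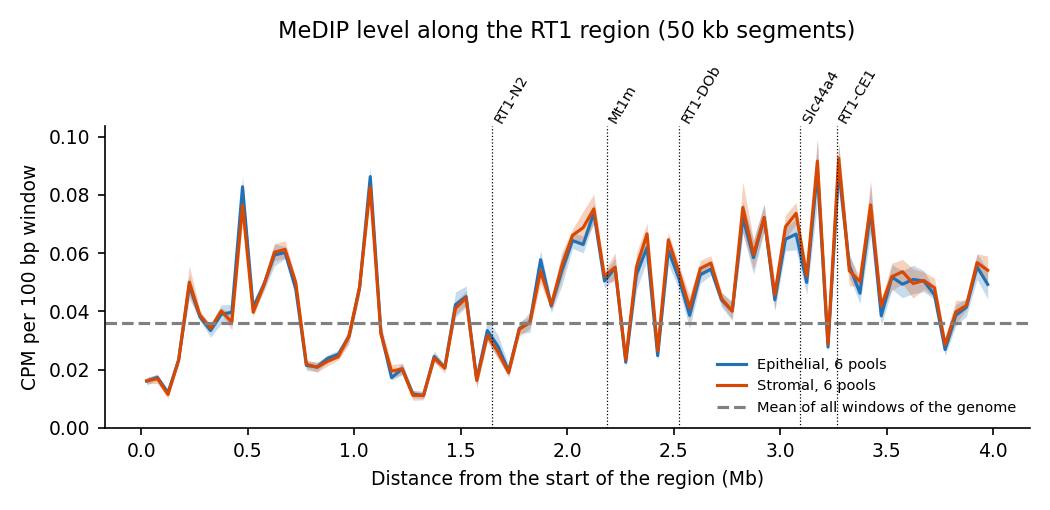
MeDIP level along the RT1 region in 50 kb segments, as CPM per 100 bp window (y axis) against the distance from the start of the region in Mb (x axis). Lines are means of the 6 epithelial and 6 stromal pools and bands their SD. Dotted lines mark the landmarks named in the text, each within 10 kb of its gene, the dashed line is the genome mean of 0.0359, and the lines of the cell types run together from 0.0111 to 0.0909 CPM.

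Single bins stood far above the median. Summed over 2 kb, the most enriched bin of the region, at chr20:3634001-3636000, held 8.71 CPM on average (6.65 to 10.5 over the 12 pools), 12.9 times the median bin of the region. The next was chr20:4764001-4766000 with 7.54 CPM, which holds the landmark of the RT1-CE genes, followed by chr20:4784001-4786000 with 6.91 CPM. These bins were chosen after their values were seen. Their CPM here are relative to the pool totals alone, without the TMM factors used for the bins tested below.

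The first comparison between lineages asks whether the region as a whole took the same part of the reads. By its number of windows the region is 7.12% of chromosome 20. In epithelial cells it took 7.28, 7.46 and 7.61% of the chromosome's counts in the 3 control lineage pools and 7.17, 7.07 and 7.11% in the vinclozolin lineage pools. In stromal cells the shares were 7.41, 7.54 and 7.53% in the control and 7.35, 7.11 and 7.16% in the vinclozolin lineage. Every vinclozolin lineage pool lay below every control lineage pool of its cell type. The means were 7.45% ± 0.168 against 7.12% ± 0.0520 in epithelial cells (SD, n = 3 pools each) and 7.49% ± 0.0744 against 7.21% ± 0.129 in stromal cells, and the exact permutation test (two-sided) gave p = 0.1 in both, the smallest value that 3 against 3 pools allow. Such separation is common along the genome. When the autosomes were divided into 645 blocks of 4 Mb and each block's share of the autosome counts was taken, the pools of the vinclozolin lineage lay below those of the control lineage in 12.6% of blocks in epithelial cells, in 30.9% in stromal cells and in 8.37% in both. In either direction the lineages separated in 29.6% of blocks in epithelial and 65.9% in stromal cells, and the cell types in 2.48%. By the size of the difference the region lay towards the lower end: its share of the autosome counts differed by a log2 ratio of -0.09 in epithelial cells and -0.09 in stromal cells, and 1.71% and 1.55% of the blocks had a lower ratio. The blocks that overlap the region or adjoin it on chromosome 20 were not left out of these counts. The shares of the cell types overlapped, with 7.28% ± 0.214 for the 6 epithelial and 7.35% ± 0.181 for the 6 stromal pools (SD), with p = 0.57 in the exact permutation test and a lower share in the epithelial pool in 5 of the 6 pairs of the same lineage and number.

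**Figure D2:**
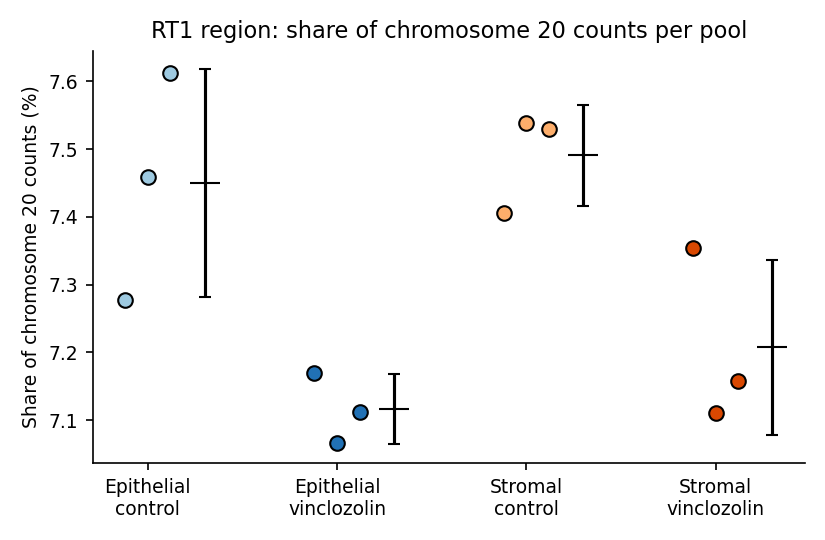
Share of the counts of chromosome 20 that fell in the RT1 region (y axis, %, not starting at 0) for each pool (points) of the 4 groups, with the mean and SD of 3 pools beside them. The vinclozolin lineage pools lie between 7.07% and 7.35%, below the control lineage pools of the same cell type, which lie between 7.28% and 7.61%.

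Where this lower level begins and ends was followed in 2 kb bins, tested over the whole genome by edgeR's quasi-likelihood test. The median log2 difference between the vinclozolin and control lineages over the bins tested in the region was -0.10 in epithelial cells (1743 bins) and -0.08 in stromal cells (1757 bins), against -0.02 in the rest of chromosome 20 in both and 0.00 over the genome. It was not spread evenly. From the start of the region to RT1-N2 the medians were -0.02 and 0.00 in epithelial and stromal cells. From RT1-N2 to Mt1m they were -0.12 and -0.07, from Mt1m to RT1-DOb -0.15 and -0.14, from RT1-DOb to Slc44a4 -0.12 and -0.12, from Slc44a4 to RT1-CE1 -0.16 and -0.10, and from RT1-CE1 to the end -0.15 and -0.15. The lower level was not limited to the region either. In the stretch of the same length that follows it, from 5500001 to 9500000, the medians were -0.13 and -0.10, and in the next, up to 13500000, they were -0.06 and -0.10. The stretch before the region stood at 0.03 and 0.09, and the chromosome beyond 13500000 at -0.01 in both cell types. Neighbouring bins share fragments, so these medians are a description with no test.

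**Figure D3:**
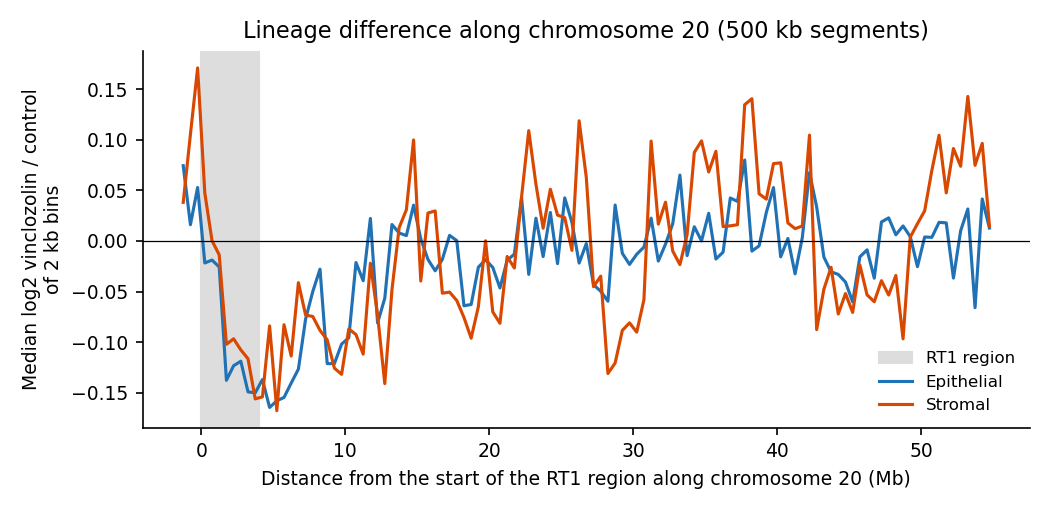
Median log2 ratio of the vinclozolin to the control lineage over the 2 kb bins of each 500 kb segment of chromosome 20 (y axis) against the distance from the start of the RT1 region in Mb (x axis), for epithelial and stromal cells. The shaded RT1 region starts near 0 in both cell types, and the medians fall inside it, stay negative in every segment from its end up to position 13000000, and lie on both sides of 0 further on.

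In stromal cells the lineage difference also changed with the level of a bin. The bins of chromosome 20 were divided into 4 groups of equal size by their mean level over all pools. From the lowest to the highest group the stromal medians were 0.03, -0.04, -0.11 and -0.13 in the region and 0.07, 0.00, -0.06 and -0.06 in the rest of the chromosome, so the region lay lower in each group. In epithelial cells they were -0.06, -0.14, -0.11 and -0.10 in the region and -0.02, -0.03, -0.03 and -0.02 in the rest. The parts of the level and of the unequal pool totals in the stromal values were not tested.

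Single lineage differences were sought in 100 bp windows with edgeR's exact test on windows whose counts summed to 10 or more, where a differentially methylated region (DMR) holds at least 1 window with p under 1e-06. The name DMR stands for a difference in read counts, in which methylation and copy number cannot be told apart. The RT1 region held 4 DMRs in epithelial cells and 3 in stromal cells, and all 7 were lower in the vinclozolin lineage. Windows under this threshold made up 0.0258% of the 19357 windows tested in epithelial cells (5 windows), against 0.00318% of the genome and 0.00431% of the rest of chromosome 20. In stromal cells they made up 0.0201% of 19910 (4 windows), against 0.0136% and 0.0158%. In the genome the DMRs numbered 309 in epithelial cells, 166 of them lower, and 1110 in stromal cells, 961 of them lower. Of 13 alternatives, the leading windows at chr20:4765601-4765700 and chr20:2585101-2585200 lost their calls in 7 each, those at chr20:3526901-3527000 and chr20:4025201-4025300 in 5 each, those at chr20:2238001-2238100 and chr20:3145201-3145300 in 2 and 1, and that at chr20:3164301-3164400 in 0. The counts depended on single pools: epithelial cells had 1 DMR without vinclozolin pool 1 and 2 without vinclozolin pool 2, and stromal cells 0 without control pool 2 or without vinclozolin pool 2 and 1 without control pool 3. With edgeR's quasi-likelihood test in place of the exact test, stromal cells had 1.

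The epithelial DMR with the smallest p, at chr20:3163301-3164500, holds a landmark assigned to RT1-S2 and RT1-N3, class I genes of the nonclassical kind, and also to Rps2-ps1 and the gene models AABR07044362.1, Rn50_20_0053.5 and Rn60_20_0032.5. The promoter of RT1-S2 is shown above.  In its window with the smallest p, chr20:3164301-3164400, epithelial cells had 0.489, 0.6 and 0.494 CPM in the control and 0.157, 0.172 and 0.216 in the vinclozolin lineage pools (log2 difference -1.57, exact test p = 3.3e-11, adjusted p = 2.3e-05). The same window of stromal cells had 0.298, 0.529 and 0.533 CPM in the control and 0.29, 0.16 and 0.252 in the vinclozolin lineage (log2 difference -0.93, adjusted p = 0.3). The pools of the lineages did not overlap in either cell type, and in stromal cells the gap was small, from 0.290 CPM in vinclozolin pool 1 to 0.298 in control pool 1.

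A second epithelial DMR, chr20:3143501-3145500, holds a landmark assigned to 4 symbols, Rps2-ps2, RGD1562652, AABR07044362.1 and RT1-N2, of which RT1-N2 is a nonclassical class I gene. In its window with the smallest p, chr20:3145201-3145300, epithelial cells had 0.91, 0.725 and 0.769 CPM in the control and 0.29, 0.381 and 0.404 in the vinclozolin lineage pools (log2 difference -1.14, exact test p = 1.5e-09, adjusted p = 0.00041). The same window of stromal cells had 0.666, 0.794 and 0.587 CPM in the control and 0.552, 0.213 and 0.308 in the vinclozolin lineage (log2 difference -0.87, adjusted p = 0.44). Stromal vinclozolin pool 1, with 0.552 CPM, stood near the control pools, while the other two stromal vinclozolin pools were lower. The reads formed a narrow peak here, and 74.1% of the counts of the surrounding 2 kb bin fell in chr20:3145001-3145400. The peak held 3.02, 2.56 and 2.49 CPM of the pool totals in the epithelial control and 1.02, 1.46 and 1.46 in the epithelial vinclozolin pools. In stromal cells it held 2.03, 2.24 and 2.18 CPM in the control and 1.9, 0.775 and 0.919 in the vinclozolin pools, so pool 1 of the vinclozolin lineage was close below the lowest control pool. The RT1-N2 promoter above holds 6 CpG sites. Which of the 4 the peak lies nearest to, and whether it covers this promoter, cannot be said from coordinates of different assemblies.

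The third epithelial DMR, chr20:3526801-3527300, was annotated to a predicted gene, AABR07044367.1, whose role is not known here. In its window with the smallest p, chr20:3526901-3527000, epithelial cells had 0.32, 0.295 and 0.385 CPM in the control and 0.121, 0.0906 and 0.121 in the vinclozolin lineage pools (log2 difference -1.60, exact test p = 1.9e-07, adjusted p = 0.012). The same window of stromal cells had 0.263, 0.265 and 0.205 CPM in the control and 0.208, 0.213 and 0.266 in the vinclozolin lineage (log2 difference -0.06, adjusted p = 1). The stromal lineages overlapped. The difference between the cell types' lineage differences was -1.49 on the log2 scale (SE 0.41), with an unadjusted p = 0.000381 and an adjusted p = 0.837 over the windows of chromosome 20 when edgeR's quasi-likelihood fit was asked for the interaction, so it was not past the threshold.

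The fourth epithelial DMR, chr20:2237501-2238100, lies before RT1-N2 and is at none of the landmarks used, so no gene is named for it. Its leading window, chr20:2238001-2238100, was shallow, with 6, 14 and 11 counts in the epithelial control and 0, 1 and 1 in the vinclozolin pools (exact test p = 4.1e-09, adjusted p = 0.00095). Stromal cells had 4, 4 and 5 counts in the control and 2, 4 and 3 in the vinclozolin pools there (adjusted p = 0.90). The depth of this window allows no close estimate of the fold.

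The 3 stromal DMRs held more reads than the epithelial ones at AABR07044367.1 and RT1-S2. That of the highest level, chr20:4764501-4766100, was annotated to the class I genes RT1-CE1, RT1-CE4, RT1-CE6 and RT1-CE7. In its window with the smallest p, chr20:4765601-4765700, stromal cells had 2.01, 1.95 and 1.99 CPM in the control and 1.26, 1.21 and 1.5 in the vinclozolin lineage pools (log2 difference -0.56, exact test p = 2e-07, adjusted p = 0.0025). The same window of epithelial cells had 1.84, 1.7 and 1.87 CPM in the control and 1.34, 1.19 and 1.33 in the vinclozolin lineage (log2 difference -0.49, adjusted p = 0.073). Its control and vinclozolin pools separated in both cell types. The region was assigned to all 4 genes, so which of them the reads belong to is not known here. Among the promoters of RT1-CE1, RT1-CE4 and RT1-CE6, only that of RT1-CE1 shared a stretch of 50 bases with another RT1 promoter, that of RT1-CE12, which is not among the 4. The RT1-CE7 promoter is not covered by this. Whether the DMR lies in a promoter was not tested, so this does not show whether its own reads fit several copies.

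The DMR chr20:4024901-4026300 was annotated to RT1-DOb, the beta chain of the class II accessory molecule DO, which modulates peptide loading in antigen-presenting cells. In its window with the smallest p, chr20:4025201-4025300, stromal cells had 1.07, 1.01 and 0.806 CPM in the control and 0.416, 0.532 and 0.531 in the vinclozolin lineage pools (log2 difference -0.91, exact test p = 1.5e-07, adjusted p = 0.002). The same window of epithelial cells had 1.37, 0.736 and 0.687 CPM in the control and 0.507, 0.553 and 0.701 in the vinclozolin lineage (log2 difference -0.66, adjusted p = 0.78). The epithelial lineages overlapped, since vinclozolin pool 3 had more than control pool 3. The third, chr20:2584701-2585300, lies before RT1-N2 at a gene model named Rn50_20_0026.4. In its window with the smallest p, chr20:2585101-2585200, stromal cells had 0.771, 0.95 and 0.943 CPM in the control and 0.498, 0.434 and 0.475 in the vinclozolin lineage pools (log2 difference -0.88, exact test p = 1.6e-07, adjusted p = 0.0021). The same window of epithelial cells had 1.23, 0.748 and 0.673 CPM in the control and 0.531, 0.517 and 0.809 in the vinclozolin lineage (log2 difference -0.52, adjusted p = 0.95). Here too the epithelial lineages overlapped. The test of the interaction found 0 of the 17754 windows of the region tested in both cell types (840 at an unadjusted p under 0.05, 4.73% of them, against 4.91% in the rest of chromosome 20), so no lineage difference was shown to differ between the cell types.

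**Figure D4:**
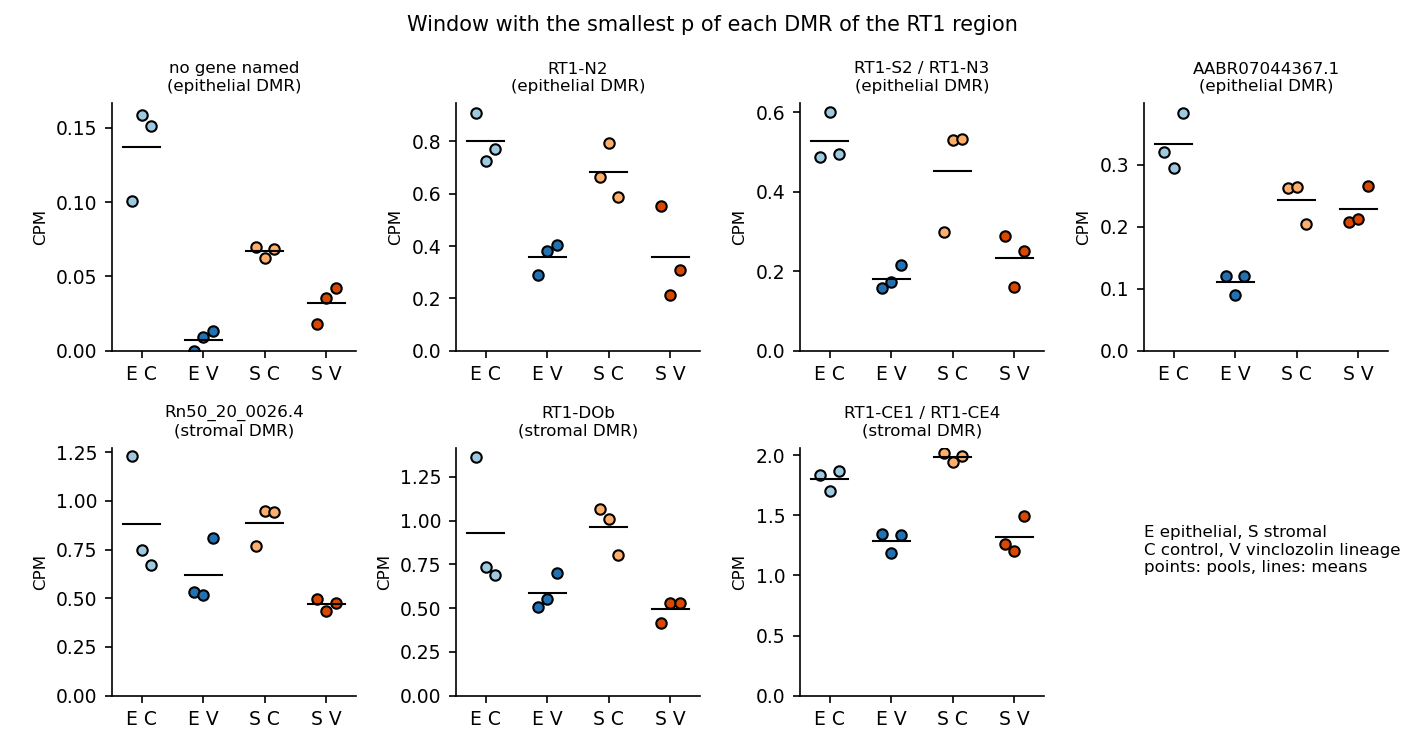
CPM (y axis, from 0) in the window with the smallest p of each of the 7 DMRs of the RT1 region, in the 3 pools (points) of each group with their mean (line). In each window the mean of the vinclozolin lineage lies below that of the control lineage in both cell types, by the least in stromal cells at AABR07044367.1, where the log2 difference was -0.06.

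Summed over 2 kb, the lineages differed in 1 of 1743 bins of the region in epithelial cells at an adjusted p under 0.05 (0.0574%), against 0.00852% of the bins of the genome (0.00376% higher and 0.00476% lower) and 0.00845% of the rest of chromosome 20, and in 14 of 1757 in stromal cells (0.797%), against 0.483% of the genome and 0.615% of the rest of chromosome 20. Of the 14 stromal bins, 13 were lower and 1 was higher in the vinclozolin lineage. In the genome 0.316% of bins were called lower and 0.166% higher. The stromal count fell to 1 without vinclozolin pool 2, 3 without control pool 2, 4 without vinclozolin pool 3, 8 without control pool 3 and 9 without vinclozolin pool 1, and DESeq2 on chromosome 20 called 26. The epithelial count was 0 without control pool 2 or without any 1 of the 3 vinclozolin pools, and 3 without control pool 1. In bins of 10 kb, 40 of 397 differed in stromal cells (36 lower), against 3.99% of the genome and 4.29% of the rest of the chromosome, and 2 in epithelial cells, against 0.175% of the genome. The epithelial bin, chr20:3144001-3146000, holds the landmark assigned to RT1-N2 and 3 other symbols. It held 3.73, 3.56 and 3.24 CPM in the control and 1.63, 2.01 and 1.97 in the vinclozolin pools (log2 difference -0.90, SE 0.14, adjusted p = 0.0094). It was also among the stromal bins, with 2.54, 2.84 and 2.88 CPM in the control and 2.53, 1.17 and 1.34 in the vinclozolin pools (log2 difference -0.70, SE 0.17, adjusted p = 0.032). Stromal vinclozolin pool 1 had 2.53 CPM against 2.54 in control pool 1, so the lineages were only just apart there.

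The stromal bin with the smallest p, at the gene model Rn50_20_0026.4, chr20:2584001-2586000, held 5.63, 4.82 and 5.18 CPM in the stromal control and 3.36, 3.22 and 3.45 in the stromal vinclozolin pools (log2 difference -0.64, SE 0.11, adjusted p = 0.0015). In epithelial cells the log2 difference of this bin was -0.38 (adjusted p = 0.53). Its lineages lay well apart in stromal cells and overlapped in epithelial cells. The next, between RT1-CE1 and the end of the region, chr20:4902001-4904000, held 1.07, 1.52 and 1.28 CPM in the stromal control and 0.686, 0.558 and 0.712 in the stromal vinclozolin pools (log2 difference -1.0, SE 0.22, adjusted p = 0.015). The most enriched bin of the region, between RT1-N2 and Mt1m, chr20:3634001-3636000, held 10.5, 9.99 and 9.6 CPM in the stromal control and 7.67, 6.62 and 7.81 in the stromal vinclozolin pools (log2 difference -0.45, SE 0.10, adjusted p = 0.015). Bins were named only if the pools of the lineages did not overlap, which fixed their separation. Of the last 2 bins, the most enriched had the smaller difference on the log2 scale. A further bin between RT1-N2 and Mt1m, chr20:3476001-3478000, held 4.34, 5.55 and 5.94 CPM in the stromal control and 4.06, 3.58 and 3.34 in the stromal vinclozolin pools (log2 difference -0.53, SE 0.12, adjusted p = 0.019). A bin between RT1-DOb and Slc44a4, the stretch that holds complement and class II genes in GRCr8, chr20:4322001-4324000, held 1.47, 1.52 and 1.27 CPM in the stromal control and 0.677, 0.771 and 0.866 in the stromal vinclozolin pools (log2 difference -0.89, SE 0.20, adjusted p = 0.02). By that condition, all 3 stromal vinclozolin pools were below all 3 control pools in each of these bins. The only bin that was higher in the vinclozolin lineage, also between RT1-DOb and Slc44a4, chr20:4204001-4206000, held 0.787, 0.559 and 0.6 CPM in the stromal control and 1.35, 1.16 and 1.16 in the stromal vinclozolin pools (log2 difference 0.93, SE 0.22, adjusted p = 0.031). In epithelial cells the log2 difference of this bin was 0.46 (adjusted p = 0.65). By the same condition all 3 vinclozolin pools lay above all 3 control pools in stromal cells. They did so in epithelial cells too, although only the stromal difference passed the test. Of 12 alternatives, the epithelial bin chr20:3144001-3146000 lost its call in 5, and of the stromal bins named here the higher one and chr20:4322001-4324000 lost theirs in 5 each, chr20:3476001-3478000 in 4, chr20:4902001-4904000 and chr20:3634001-3636000 in 3 each and chr20:2584001-2586000 in 1. The test of the interaction found 0 of 1749 bins of the region (0 also with DESeq2 on chromosome 20), and 0 of 1200740 in the genome. At an unadjusted p under 0.05 there were 102 bins of the region (5.83%), against 5.65% of the rest of chromosome 20 and 5.54% of the genome.

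The second comparison asks where the cell types differ within the region. Of 1749 bins tested, 22 differed between epithelial and stromal cells at an adjusted p under 0.05 (1.26%), 9 higher and 13 lower in epithelial cells, against 0.875% of the genome and 1.31% of the rest of chromosome 20, so the share called in the region was close to that of the chromosome. Without epithelial vinclozolin pool 2 or 3, or stromal vinclozolin pool 2, it fell to 12, 14 and 13. Within the control lineage alone 1 of 1713 bins was called (0.0584%), against 0.0109% of the genome and 0.0129% of the rest of chromosome 20. Within the vinclozolin lineage alone 11 of 1781 were called (0.618%), against 0.386% and 0.625%. None of the 22 lay before RT1-N2, where 643 bins were tested. In the genome 0.393% of bins were called higher and 0.483% lower. In bins of 10 kb, 16 of 397 differed, 5 higher and 11 lower, against 2.16% of the genome and 2.92% of the rest of chromosome 20. Of the 22 bins of 2 kb, there were 10 among 257 tested between RT1-N2 and Mt1m and 7 among 279 between RT1-DOb and Slc44a4. There were 1 among 76 between Slc44a4 and RT1-CE1, 4 among 340 beyond RT1-CE1 and 0 among 154 between Mt1m and RT1-DOb. These counts are small and are a description with no test.

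The difference with the smallest p was at chr20:3394001-3396000, between RT1-N2 and Mt1m. Epithelial control pools had 1.33, 1.09 and 1.08 CPM and epithelial vinclozolin pools 1.26, 1.29 and 1.6, against 0.175, 0.296 and 0.178 and 0.525, 0.319 and 0.252 in the stromal pools of the control and vinclozolin lineage. No stromal pool came near the lowest epithelial pool. The means were 1.28 ± 0.192 and 0.291 ± 0.129 CPM (SD, n = 6), a log2 difference of 2.15 (SE 0.19, adjusted p = 4.8e-11), that is 4.44 times more in epithelial cells. It was called under all 20 alternatives tried. The next bin, chr20:3396001-3398000, was called as well, and so was chr20:3390001-3392000, with log2 differences of 0.69 and 0.49. The 2 kb directly before chr20:3394001-3396000 were not called. In 500 bp steps the log2 ratio inside the bin was highest, at 2.91, in chr20:3394501-3395000, where the mean level was 0.295 and 0.362 CPM in epithelial control and vinclozolin cells and 0.0466 and 0.0406 in stromal cells. At the peak next to it, chr20:3396001-3396500, the means were 1.40 and 1.09 in epithelial and 0.989 and 0.504 in stromal cells, and the cell types overlapped.

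**Figure D5:**
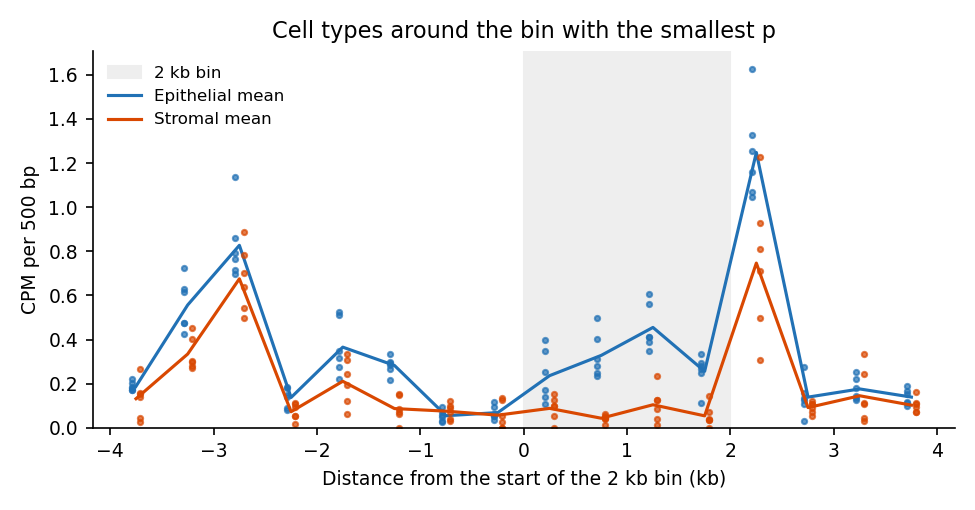
CPM per 500 bp (y axis, from 0) around the 2 kb bin with the smallest p between the cell types (shaded), against the distance from its start in kb (x axis). Points are the 6 pools of each cell type and lines their means. Inside the bin the epithelial means are above the stromal ones in every step, and the log2 ratio reaches 2.91 in the second step.

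Only bins whose pools did not overlap between the cell types are ranked here, so their separation was fixed by that choice. Among such bins higher in epithelial cells that lie further away, the first by p, between RT1-DOb and Slc44a4, chr20:4422001-4424000, lay between 1.95 and 2.45 CPM (median 2.09) in epithelial and between 0.867 and 1.76 CPM (median 1.5) in stromal pools (log2 difference 0.57, SE 0.12, adjusted p = 0.0045). The next, beyond RT1-S2, chr20:3188001-3190000, lay between 0.544 and 1.24 CPM (median 0.721) in epithelial and between 0.327 and 0.503 CPM (median 0.404) in stromal pools (log2 difference 0.95, SE 0.21, adjusted p = 0.0073). By this choice the lowest epithelial pool was above the highest stromal pool in both. A further bin between RT1-DOb and Slc44a4, chr20:4330001-4332000, lay between 0.893 and 1.14 CPM (median 1.08) in epithelial and between 0.496 and 0.872 CPM (median 0.636) in stromal pools (log2 difference 0.68, SE 0.16, adjusted p = 0.02). The fifth, between RT1-N2 and Mt1m, chr20:3202001-3204000, lay between 0.725 and 1.01 CPM (median 0.878) in epithelial and between 0.385 and 0.697 CPM (median 0.503) in stromal pools (log2 difference 0.74, SE 0.18, adjusted p = 0.024). By the same choice their pools did not overlap between the cell types. Of the bins lower in epithelial cells whose pools did not overlap, the first by p, beyond RT1-CE1, chr20:5066001-5068000, lay between 1.27 and 1.7 CPM (median 1.47) in epithelial and between 1.75 and 2.66 CPM (median 2.47) in stromal pools (log2 difference -0.62, SE 0.11, adjusted p = 0.001). A second in the same stretch, chr20:4880001-4882000, lay between 0.6 and 0.893 CPM (median 0.874) in epithelial and between 0.946 and 1.58 CPM (median 1.28) in stromal pools (log2 difference -0.67, SE 0.15, adjusted p = 0.0097). The stromal pools were all higher in both. Between RT1-N2 and Mt1m one more, chr20:3552001-3554000, lay between 0.673 and 0.978 CPM (median 0.797) in epithelial and between 1.03 and 1.6 CPM (median 1.23) in stromal pools (log2 difference -0.64, SE 0.15, adjusted p = 0.014). Nearer to Mt1m another, chr20:3660001-3662000, lay between 0.0687 and 0.253 CPM (median 0.217) in epithelial and between 0.328 and 0.57 CPM (median 0.443) in stromal pools (log2 difference -1.21, SE 0.28, adjusted p = 0.017). The second of these 2 bins is of low level in both cell types. The last, shortly before Slc44a4, chr20:4570001-4572000, lay between 0.412 and 0.676 CPM (median 0.647) in epithelial and between 0.81 and 0.984 CPM (median 0.948) in stromal pools (log2 difference -0.65, SE 0.17, adjusted p = 0.045). Under the 20 alternatives chr20:4570001-4572000 lost its call in 12, chr20:3202001-3204000 in 8, chr20:4330001-4332000 in 7, chr20:3660001-3662000 in 6 and each of the other 5 bins given here in 1 to 5. Of the 22 called bins, 10 had pools of the cell types that overlapped, among them chr20:4436001-4438000 and chr20:4384001-4386000, with log2 differences of -1.24 and -1.10.

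The spread between the pools of a group was close to that of the rest of the chromosome in 2 kb bins and higher in the region in 10 kb bins. The median SD of the log2 CPM of a 2 kb bin was 0.268 and 0.239 in the epithelial control and vinclozolin pools and 0.252 and 0.226 in the stromal ones, against 0.276, 0.236, 0.271 and 0.226 in the rest of chromosome 20. In 10 kb bins it was 0.152, 0.130, 0.130 and 0.115 in the same order, against 0.134, 0.115, 0.126 and 0.105 in the rest, so the region was higher in all 4 groups. In 10 kb bins an SD above 0.5 was found in 2.27% and 2.77% of the region's 397 bins in epithelial and stromal control pools, against 0.870% and 0.716% of the rest of chromosome 20. In the epithelial and stromal vinclozolin pools it was found in 0.504% and 1.01%, against 0.426% and 0.232%. These shares rest on few bins and are a description with no test. The part of low counts in them was not tested.

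One of these bins, chr20:4050001-4060000, which follows RT1-DOb, was wide in the control pools of both cell types. It held 1.84, 3.13 and 4.08 CPM in the epithelial and 1.58, 3.08 and 4.19 in the stromal control pools, so pool 1 was lowest and pool 3 highest in both. The vinclozolin pools held 3.5, 2.73 and 3.72 and 4.31, 3.09 and 3.36 CPM. At chr20:4270001-4280000 the epithelial control pools had 0.472, 0.476 and 0.92 CPM and the stromal 0.298, 0.56 and 0.833, with pool 3 again highest. These 2 bins were chosen after their values were seen. Over all 397 bins of the region, the deviations from the group mean of epithelial and stromal pools with the same lineage and number had correlations of 0.00957 to 0.193, and in the 5170 bins of the rest of chromosome 20 they were -0.0195 to 0.0662. For pools of the same lineage and different numbers they were -0.164 to 0.0481 in the region and -0.0509 to 0.0381 in the rest, and deviations within 3 pools sum to 0. They are weak and across bins that are not independent, whether pools of the same number hold the same rats is not stated, and they are given as a description.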

How the data were processed

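The authors sequenced MeDIP libraries of 12 pools. Their processing notes and methods name FastQC, Trimmomatic, Bowtie2 with the Rnor_6.0 genome, SAMtools, MEDIPS and edgeR, with versions not given in the sources used here. The deposited counts are numbers of reads per 100 bp window, not normalized, and the highest value is 300. The 12 deposited RPKM columns, one per pool, and the columns of the authors' own comparisons (fold changes and p-values) were not used.

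Counts were summed in 2 kb bins over the genome, and bins with a mean of at least 10 per pool were tested with edgeR 4.0.16 in R 4.3.3 (quasi-likelihood test, TMM factors between 0.977 and 1.01, dispersion trend from 100000 seeded bins, Benjamini-Hochberg limit 0.05). The lineages were compared within each cell type, the cell types over all pools. In 100 bp windows whose counts summed to 10 or more, edgeR's exact test was used, and windows under 1e-06 were joined with those under 0.1 within 1000 bp. All adjusted p-values cover the genome except where chromosome 20 is named. The quasi-likelihood test on 2 kb bins and the exact test on 100 bp windows were tried on simulated counts. These covered the lineage comparison of the stromal pools on chromosome 20 only. Simulated bins and windows were drawn independently, unlike real neighbours, which share fragments, and the outcome is not given here. Python 3.11.15 and SciPy 1.17.1 gave the exact tests, and CPM are relative to the pool totals, with TMM factors for bins and windows (log2 CPM for the spread with a prior count of 2). TMM factors were not applied to levels per window, the ranking of the most enriched bins, the peak at RT1-N2 and the 500 bp steps.

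In each comparison and direction, the 5 called bins with the smallest p whose pools did not overlap were named, neighbours within 10 kb once, together with all DMRs. The members and lists were chosen with earlier results of these data known. A pool combines several rats, so p-values measure the spread between pools. Both cell types were prepared from combined tissue, but whether pools of the same number are the same rats is not stated, so the block in an alternative fit of the cell types joins pools by lineage and number only. MEDIPS with edgeR p-values was named by the authors, while the exact test and the count minimum were chosen here. Tests of gene bodies, promoters and CpG content were not run, since no Rnor_6.0 genome or annotation was used here.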

Additional observations from a re-analysis of the deposited data

How the results depend on the processing

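The share of chromosome 20 counts kept its direction in each comparison under the alternatives run. Leaving out 1 pool at a time gave lineage differences of -0.419 to -0.252 points in epithelial and -0.356 to -0.235 in stromal cells, and cell type differences of -0.132 to -0.0231. The exact sign-flip test over the 6 pairs of a replicate block gave p = 0.16 for the cell types. The numbers of bins called were less stable. Leaving out 1 pool gave 12 to 20 bins for the cell types, 0 to 3 for the lineages in epithelial and 1 to 19 in stromal cells, and 1 to 6 DMRs in epithelial and 0 to 4 in stromal cells. The cell types differed in 1 bin in the control lineage alone and in 11 in the vinclozolin lineage alone. Each of these fits has fewer pools than the main fit, and over the genome they called 0.0109% and 0.386% of bins. In bins of 10 kb the lineages differed in 2 bins in epithelial and 40 in stromal cells, and DESeq2 on chromosome 20 alone called 26 stromal bins. With the replicate block, which for the lineages joins pools that share only a number, 19 cell type bins, 0 epithelial and 13 stromal lineage bins were called. Deviations of such pools had correlations of -0.115 to 0.00609 over the genome and -0.140 to -0.0229 over the region in epithelial cells. The quasi-likelihood test on windows gave 6 epithelial DMRs and 1 stromal DMR, with the block as without it. In bins of 10 kb the median SD was 0.152, 0.130, 0.130 and 0.115 in the epithelial control, epithelial vinclozolin, stromal control and stromal vinclozolin pools, and in the rest of chromosome 20 it was 0.134, 0.115, 0.126 and 0.105. The causes were not tested. Of the named bins and windows none changed direction, and 22 of 171 values with all pools and 77 of 204 with 1 pool left out were no longer past the threshold. Adjusting over chromosome 20 alone and the window interaction were chosen after seeing the data. The alternatives for gene bodies and promoters were not run. Windows of few counts, such as the epithelial DMR before RT1-N2, limit the precision of a fold.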

Other observations

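The longest stretch of the region without a count in any of the 12 pools was 18.2 kb, at chr20:2952901-2971100 (Rnor_6.0), and 3 stretches reached 10 kb or more. Whether the sequence is resolved in the assembly was not tested.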
